A study of Arabidopsis thaliana with 12 samples.

Results

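Glutathione S-transferases (GSTs) were followed in the RNA-Seq data of Arabidopsis thaliana seedlings exposed to H2O2. The members were taken by gene identifier from a list of 43 genes, 28 of the tau class, 11 of the phi class, 1 of the zeta class and 3 of the lambda class. Of the 43 genes, 38 were among the 20972 genes with deposited values and 34 had a mean normalized count of at least 10, which made them testable. All seedlings were wild type Col grown in shaken liquid MS medium under constant light until they were 5 days old. The groups were 0 min, when distilled water was added, and 2, 4 and 8 min after the addition of 1 mM H2O2, with 3 replicates each and about 100 to 150 whole seedlings per time point. Water was sampled at 0 min only, so that exposure to H2O2 and the minutes after handling cannot be told apart. The labels state that the experiment was repeated but not whether each replicate was a separate culture, so that p-values measure the spread between these libraries.

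GSTs join the tripeptide glutathione to reactive, electrophilic compounds, and several also act as glutathione peroxidases or carry small molecules inside the cell. In plants the tau and phi classes are large and are known for detoxification of herbicides and stress products, the zeta enzyme acts in the breakdown of tyrosine, and lambda enzymes release glutathione from oxidized conjugates. Transcripts of many tau and phi GSTs are known to accumulate after salicylic acid, herbicide safeners and oxidized lipids. TGA factors, basic leucine zipper proteins that bind TGACG cores of as-1-type elements, act in that response. The comparisons asked which GST transcripts differ within minutes of H2O2.

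Promoter windows are shown because TGACG cores are the sequence that TGA factors bind. Whether TGA factors act on the genes shown was not tested. GSTU7 (AT2G29420), GSTU5 (AT2G29450) and GSTU1 (AT2G29490) were chosen for the 3 highest fitted changes at 8 min, none of which passed the limma test. GSTF8 (AT2G47730) was the most abundant phi member at that time. Each was read 5′ to 3′ on the strand of its gene in TAIR10.1, with 20 bases on either side of the outermost cores and the cores on either strand (TGACG or CGTCA) in capitals. GSTU7 lies at chr2:12618924-12618980 (minus strand), GSTU5 at chr2:12625908-12625952 (minus), GSTU1 at chr2:12632579-12632635 (minus) and GSTF8 at chr2:19556113-19556157 (plus).
GSTU7: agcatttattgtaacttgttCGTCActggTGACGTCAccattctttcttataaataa
GSTU5: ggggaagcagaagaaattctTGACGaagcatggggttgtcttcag
GSTU1: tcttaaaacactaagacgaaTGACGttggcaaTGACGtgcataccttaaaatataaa
GSTF8: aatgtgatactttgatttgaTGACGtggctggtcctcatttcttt
Counted from the first base of the annotated gene, with negative positions upstream, the 3 cores of GSTU7 began between -61 and -49, and a pair of them overlaps as TGACGTCA. GSTU1 held 2 cores beginning at -77 and -65, GSTU5 held 1 at -142 and GSTF8 held 1 at -193. In windows of 300 bases (250 before to 50 after the gene start), TGACG on either strand was in 16 of 38 GST promoters (42.1%) and in 23.6% of the promoters of 20857 deposited genes. By class, the core was in 12 of 25 tau, 3 of 9 phi, 0 of 1 zeta and 1 of 3 lambda promoters. The W-box core TTGAC, bound by WRKY factors, was in 26 of 38 GST promoters (68.4%), against 51.2% of all promoters, and the sequence TTGACG that counts for both motifs was in 1 of 38 GST promoters (2.63%), against 8.91% of all promoters. The promoters of GSTF12, GSTU14 and GSTU12, which had the lowest fitted changes at 8 min, held 0 TGACG cores, as did those of GSTU8 and GSTU10, next below GSTU1 in fitted change. The windows of GSTU20, GSTU6 and GSTF10 held 1 core each, and their fitted changes at 8 min were negative or close to none. Whether cores go with changes was not tested. These matches are a description of letters and not of bound sites.

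The 12 libraries held between 13558388 and 26618274 reads on genes, with a median of 16853679. Summed normalized counts of 4 photosynthetic shoot markers ranged between 583167 and 714112 at 8 min and between 644516 and 854590 at 0 min. Summed counts of 4 root markers, led by the root beta-glucosidase PYK10, ranged between 72598 and 77917 at 8 min and between 65131 and 90968 at 0 min. PYK10 alone had between 62747 and 89077 over the 12 libraries, so that the root sum mostly follows this gene. BGLU21 ranged between 760 and 2053, EXPA7 between 143 and 425 and COBL9 between 53.9 and 140. All 8 markers were detected in every library, so that both organs were represented at each time. The ranges of the summed counts at the 4 time points overlapped. In whole seedlings, fewer cells of a type and less RNA per cell cannot be told apart.

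GST transcripts covered a wide range of steady-state levels in these seedlings. Levels were divided by the length of the longest annotated transcript of each gene. Without this division, GSTF8 had a higher mean normalized count than GSTU19 (5691 against 4557). Per kilobase, the mean level over 12 libraries was 4069 normalized counts for GSTU19 and 4.09 for GSTU21. The ratio between the highest and the lowest of the 38 was 996. The 8 most abundant members in this order were GSTU19 (AT1G78380), GSTF8, GSTF10 (AT2G30870), GSTF6 (AT1G02930), GSTF9 (AT2G30860), GSTF7 (AT1G02920), GSTL3 (AT5G02790) and GSTU5, and they held 81.3% of all normalized counts on GSTs. The median gene of the table stood at 143.5 counts per kilobase, and 21 of 38 GSTs were above it. Neighbours in this order mostly overlapped. The ranges over 12 libraries overlapped in 35 of 37 neighbouring pairs, and the exceptions were GSTU5 above GSTU18 and GSTU10 above GSTU28.

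**Figure D1:**
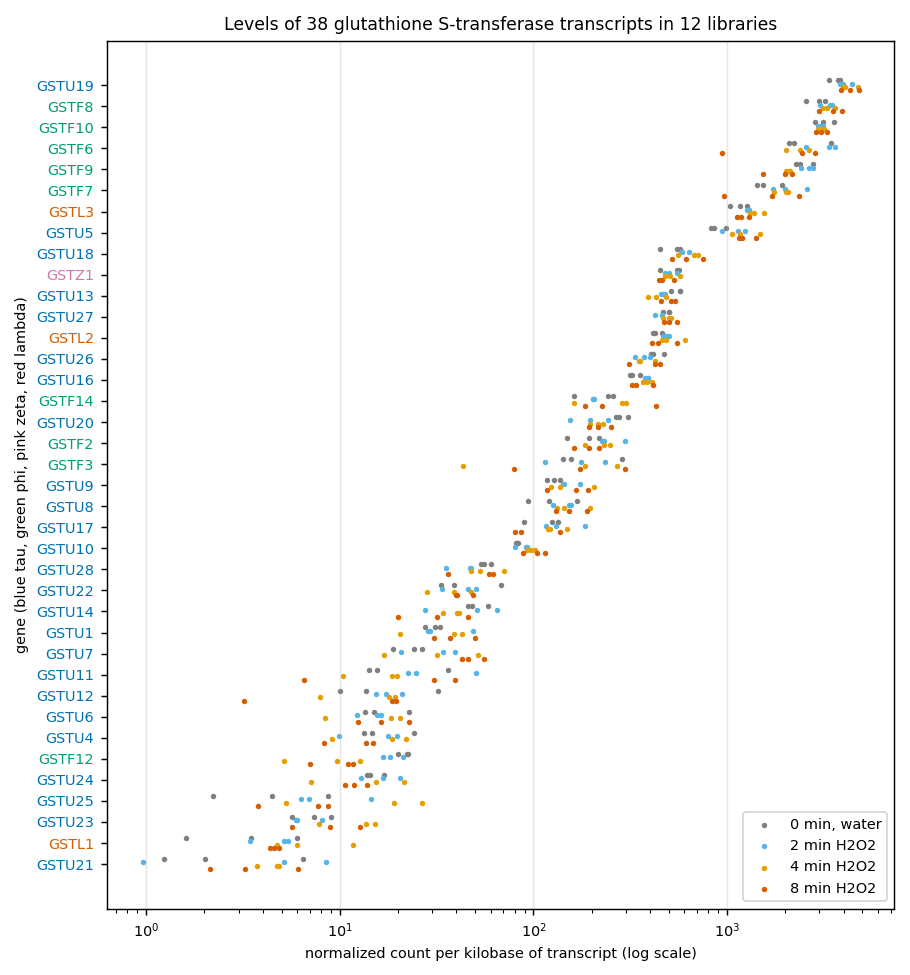
Normalized counts per kilobase of transcript (x axis, log scale) of the 38 glutathione S-transferases with deposited values, ordered by their mean over 12 libraries, with 1 point per library coloured by time point. The means run from 4.09 for GSTU21 to 4069 for GSTU19, and the ranges of neighbours in this order overlap in 35 of 37 pairs.

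As a share of all normalized counts in a library, the 38 GSTs took 0.165% ± 0.0156 at 0 min, 0.182% ± 0.00661 after 2 min, 0.175% ± 0.0081 after 4 min and 0.172% ± 0.0228 after 8 min (SD, n = 3 each). The 9 phi members with values took most of this, 0.0989% ± 0.0182 at 8 min against 0.0999% ± 0.0111 at 0 min (SD, n = 3 each). The 25 tau members took 0.0591% ± 0.00368 at 8 min against 0.0511% ± 0.0036 at 0 min (SD, n = 3 each). In the family as a whole and in both classes the shares at 8 and 0 min overlapped. Of the 5 listed members without deposited values (GSTU2, GSTU3, GSTU15, GSTF11 and GSTF13) nothing was analysed here; the table listed only genes with at least 1 read in every library. GSTU21, GSTU23, GSTU25 and GSTL1 had values but means under 10 and were not tested. Among these, GSTU25 ranged between 2.25 and 27.0 normalized counts over the 12 libraries, and its highest values, 27.0 and 19.4, were in 4 min replicates 1 and 3.

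With time point as its only term, the limma model called no GST transcript at any time, and some other models called a few. With limma on log2(normalized count + 1) and an adjusted p under 0.05 (Benjamini-Hochberg over 19485 genes), 0 of 34 GSTs were higher and 0 were lower at 2 min than at 0 min, where 0% of all genes passed in either direction. At 4 min the counts were 0 of 34 in both directions, beside 0.754% of all genes higher and 0.0565% lower. At 8 min they were again 0 of 34, beside 1.29% of all genes higher and 0.0513% lower. The comparisons among the H2O2 times also gave 0 of 34 in both directions, with backgrounds of 0.0821% higher and 0% lower for 4 against 2 min, 0.626% higher and 0.0103% lower for 8 against 2 min, and 0% in both directions for 8 against 4 min. The moderated F test for any difference among the 4 time points called 0 of 34 GSTs and 1.03% of all genes. With shares this small over all genes, a count of 0 among 34 members is near the background.

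Before adjustment, limma gave p under 0.05 for 3 GSTs higher and 2 lower at 2 min (6.36% and 5.68% of all genes), 5 higher and 3 lower at 4 min (8.6% and 7.02%), and 5 higher and 4 lower at 8 min (8.03% and 5.69%). For 4 against 2 min these counts were 0 higher and 2 lower (2.01% and 1.09% of all genes), for 8 against 2 min 1 higher and 5 lower (3.94% and 1.8%), and for 8 against 4 min 1 higher and 1 lower (1.76% and 1.04%). The unadjusted F test gave 6 of 34, beside 10.8% of all genes. edgeR on reads recovered from the values called 0 of 34 GSTs in every comparison and in the test over 4 time points. It called 0% of all genes in both directions at 2 min, 0.667% higher and 0.0411% lower at 4 min, 1.34% higher and 0.0616% lower at 8 min, and 1.04% over the 4 time points. Among the H2O2 times it called 0.077% of genes higher and 0% lower for 4 against 2 min, 0.652% and 0.0103% for 8 against 2 min, and 0.0103% and 0% for 8 against 4 min.

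DESeq2 on the same reads called 0 of 34 GSTs at 2 min, beside 0.272% of all genes higher and 0.216% lower. It gave no adjusted p at 2 min for some members of low counts, which could therefore not be called there. GSTU1, GSTU4, GSTU6, GSTU7, GSTU11, GSTU12 and GSTU14 were among them. Members with none at 4 min included GSTU4, GSTU12 and GSTF12. It called 2 at 4 min, GSTU5 higher (beside 1.89% of all genes) and GSTU13 lower (beside 0.642%). At 8 min it called 1, GSTU5 higher (beside 1.92% higher and 0.4% lower of all genes). For 8 against 2 min it called 1, GSTF9 lower (beside 0.837% higher and 0.0411% lower). It called 0 of 34 for 4 against 2 min (0.2% of genes higher, 0% lower) and for 8 against 4 min (0.159% higher, 0.0103% lower), and 2 of 34 over the 4 time points (GSTF9 and GSTU5, beside 2.45% of all genes).

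The median log2 change over the 34 GSTs was 0.11 after 2 min, 0.0017 after 4 min and -0.019 after 8 min, beside -0.00049, -0.0097 and -0.0046 over all genes tested. At 8 min 17 GSTs were above 0 and 17 below, at 4 min 17 and 17, and at 2 min 20 and 14. The 95% interval lay within 2-fold in both directions for 29 of 34 GSTs at 2 min, 28 at 4 min and 25 at 8 min. It lay within 1.5-fold for 13, 13 and 14 of 34. At 8 min, a rise of 2-fold or more was inside the interval of 3 GSTs and a fall of that size inside the interval of 8.

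**Figure D2:**
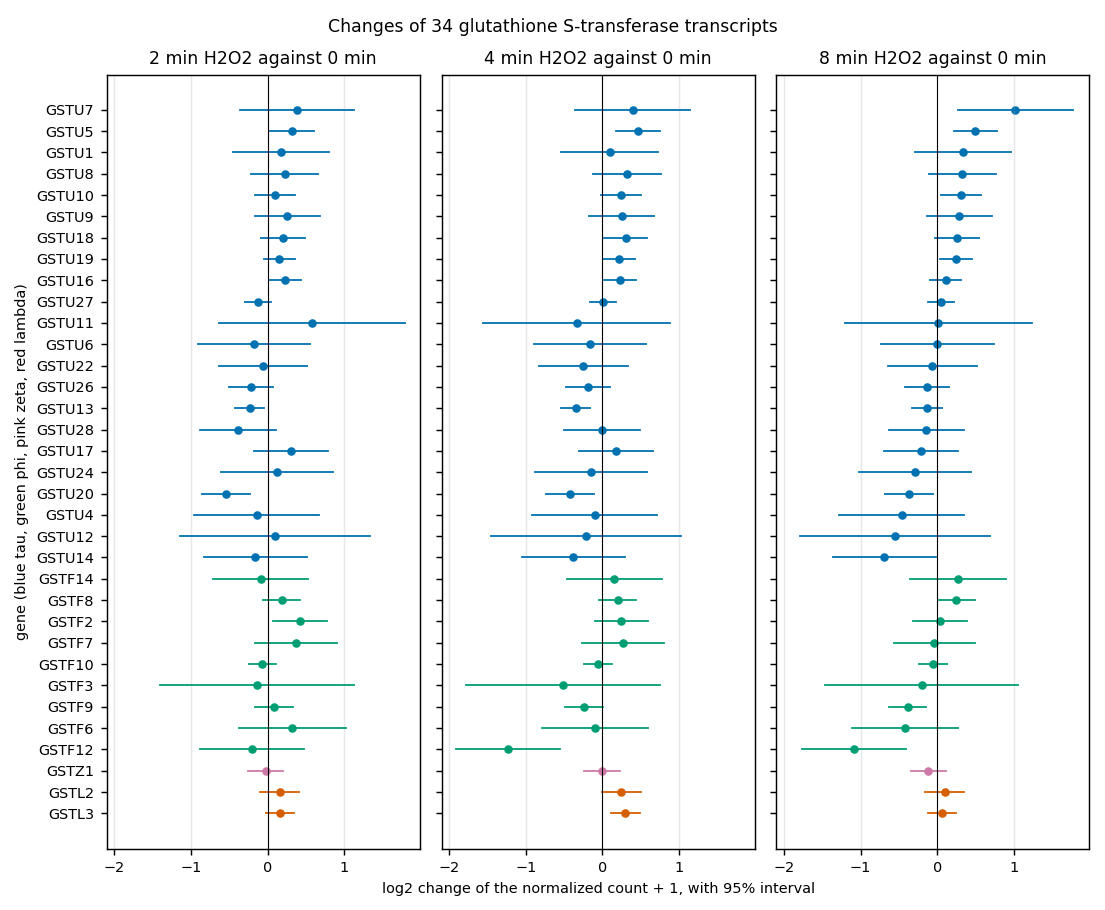
Log2 change of the normalized count + 1 with its 95% interval (x axis) for the 34 tested glutathione S-transferases at 2, 4 and 8 min of H2O2 against 0 min, 3 libraries each, grouped by class and ordered by the change at 8 min. GSTU7 (1.02) and GSTF12 (-1.09) are at the ends at 8 min, and none of the 34 passed an adjusted p of 0.05 (limma).

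Some GSTs had replicates that separated completely from those of 0 min, given here as counts with no test. At 8 min, all 3 replicates were above all 3 of 0 min for 4 of 34 GSTs (GSTU5, GSTU7, GSTU10 and GSTU19) and below them for 4 (GSTU14, GSTU20, GSTF9 and GSTF12), beside 8.56% and 8.23% of all genes. At 4 min the counts were 6 above (GSTU5, GSTU10, GSTU16, GSTU19, GSTL2 and GSTL3) and 5 below (GSTU13, GSTU14, GSTU20, GSTF9 and GSTF12), beside 10.5% and 9.5%. At 2 min they were 5 above (GSTU9, GSTU16, GSTU18, GSTF2 and GSTL2) and 5 below (GSTU13, GSTU20, GSTU26, GSTU27 and GSTU28), beside 9.83% and 9.24%. GSTU20 (AT1G78370) was the only tested GST separated at each of the 3 times.

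The tau genes GSTU1 to GSTU7 form a tandem array on chromosome 2 (TAIR10.1, chr2:12617936-12632538, minus strand, 2 exons each), and 5 of its 7 genes were tested. GSTU5 was the abundant member of the array. It had 1247, 1088 and 1047 normalized counts at 0 min, 1454, 1192 and 1578 after 2 min, 1879.8, 1473 and 1348 after 4 min and 1800.3, 1468 and 1511 after 8 min. All 4 min and all 8 min libraries were above all 0 min libraries, while 1 of the 2 min libraries fell within the range of 0 min. The log2 change at 8 min was 0.50 (95% interval 0.21 to 0.78, 1.41-fold, limma adjusted p = 0.104) and at 4 min 0.46 (0.18 to 0.75, adjusted p = 0.123). DESeq2 gave adjusted p = 0.0185 at 8 min and 0.0303 at 4 min, and edgeR gave 0.105 and 0.117. Over 24 alternatives the adjusted p ranged between 0.0185 and 0.402 at 8 min and between 0.0297 and 0.409 at 4 min. The call depended on the model, while every change was positive. At each time 3 of 24 passed, namely DESeq2 on recovered reads, DESeq2 on all listed genes and limma with a replicate block. DESeq2 made no such call for the neighbours GSTU1, GSTU4, GSTU6 and GSTU7, though it gave no adjusted p for GSTU4 at 4 min.

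GSTU7 had the highest fitted change of the 34 at 8 min. It had 16.6, 21.3 and 23.6 normalized counts at 0 min, 30.3, 34.7 and 18.3 after 2 min, 46.0, 15 and 28.2 after 4 min and 40.6, 37.9 and 49.0 after 8 min. The 8 min libraries were above all 0 min libraries, whereas the 2 min and 4 min libraries overlapped with them. The log2 change at 8 min was 1.02 (95% interval 0.28 to 1.76, 2.03-fold), with adjusted p = 0.211 by limma, 0.188 by edgeR and 0.154 by DESeq2. Its reads were between 14 and 59 per library. Of its 838 stretches of 50 bases, 464 also lie on the opposite strand of AT2G08340, and whether the counting used the strand is not given in the sources used here.

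The other members of the array stayed within the spread of the replicates. GSTU1 had 54.9, 34.03 and 41.2 normalized counts at 8 min against 34.3, 30.3 and 36.3 at 0 min (log2 change 0.33, 95% interval -0.29 to 0.96). GSTU4 had 17.6, 16.1 and 9.81 at 8 min against 28.4, 15.7 and 17.3 at 0 min (log2 change -0.46, -1.28 to 0.35). GSTU6 had 16.5, 21.8 and 30.4 at 8 min against 30.4, 17.96 and 19.98 at 0 min (log2 change 0.0014, -0.73 to 0.73). The 8 and 0 min libraries overlapped for all 3 genes. GSTU6 shares 349 of its 1284 stretches of 50 bases with the opposite strand of AT2G29430.

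GSTU19, a tau enzyme with high activity towards model electrophiles, was the most abundant GST per kilobase. It had 4306, 4166 and 3774 normalized counts at 0 min, 4923, 4432 and 4281 after 2 min, 5318, 4443 and 4529 after 4 min and 5349, 4351 and 4808 after 8 min. Every 4 and 8 min library was above every 0 min library, and 2 min replicate 3 was just below the highest of 0 min. The change was small, 0.24 on the log2 scale at 8 min (95% interval 0.03 to 0.45, 1.18-fold, limma adjusted p = 0.286), and a 2-fold change was outside its interval. Its neighbour GSTU20, which is known to bind the jasmonate-conjugating enzyme JAR1, had 353, 319 and 307 counts at 0 min, 177, 225 and 277 after 2 min, 223, 262 and 246 after 4 min and 223, 248 and 287 after 8 min. All 9 H2O2 libraries of GSTU20 were below the 3 of 0 min. The log2 changes were -0.54 at 2 min (95% interval -0.86 to -0.23, adjusted p = 0.231), -0.42 at 4 min (-0.73 to -0.11, 0.194) and -0.37 at 8 min (-0.68 to -0.06, 0.276), all by limma, and GSTU20 was named after its values were seen. The same holds for GSTU13, GSTF9, GSTF6, GSTF7, GSTF3, GSTU10, GSTU25 and GSTL3.

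GSTU13 (AT1G27130) was named because DESeq2 called it, and acts in the metabolism of indole glucosinolates during defence. It had 735, 739 and 658 normalized counts at 0 min, 589, 602 and 616 after 2 min, 619.9, 549.6 and 505 after 4 min and 587, 696 and 657 after 8 min. The 2 and 4 min libraries were below all 0 min libraries, and the 8 min libraries overlapped with them. The log2 change at 4 min was -0.35 (95% interval -0.54 to -0.16), with adjusted p = 0.0877 by limma, 0.096 by edgeR and 0.0352 by DESeq2, and between 0.0352 and 0.213 over 24 alternatives. GSTU14 (AT1G27140), the gene beside it on chromosome 1, had the lowest fitted change of the tau class at 8 min, with 19.7, 44.9 and 31.4 counts at 8 min against 45.1, 57.3 and 47.2 at 0 min. All 3 libraries at 8 min were below those of 0 min, 1 of them by a narrow margin (log2 change -0.69, 95% interval -1.36 to -0.02, limma adjusted p = 0.351). With 1 library left out the change of GSTU14 lay between -0.96 and -0.39, the smallest without 8 min replicate 1 (adjusted p = 0.783).

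**Figure D3:**
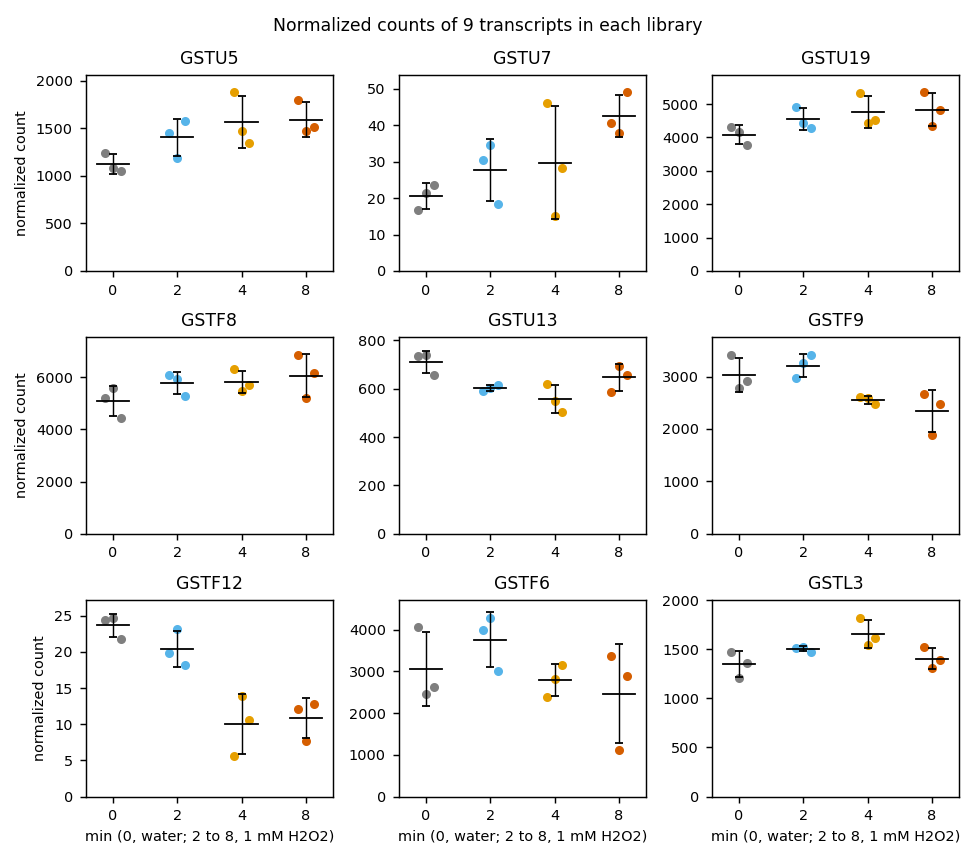
Normalized counts (y axis, from 0) of 9 glutathione S-transferase transcripts at 0 min (water) and 2, 4 and 8 min of 1 mM H2O2 (x axis), with 1 point per library and lines for the mean and SD of 3 libraries. GSTU5 is higher in all 4 and 8 min libraries than at 0 min, GSTF12 is lower, and 8 min replicate 2 of GSTF6 stands at 1122 counts, below the other 11 libraries.

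Among the phi class, GSTF8, a gene long used as a marker of early stress responses, was the most abundant member. It had 5218, 5608 and 4457 normalized counts at 0 min, 6095, 5923 and 5299 after 2 min, 6304, 5461 and 5718 after 4 min and 6851, 5195 and 6167 after 8 min. The groups overlapped at each time, since the lowest library after 2, 4 and 8 min was within the range of 0 min. The log2 change at 8 min was 0.25 (95% interval 0.01 to 0.49, 1.19-fold, limma adjusted p = 0.338). GSTF10 had 3452, 3242 and 3710.5 counts at 8 min against 4051, 3559 and 3229 at 0 min (log2 change -0.055, 95% interval -0.23 to 0.12), with overlapping groups and the narrowest interval of the 3 most abundant GSTs.

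GSTF9, which lies just upstream of GSTF10 on chromosome 2, was named because DESeq2 called it. It had 3404, 2785 and 2920.3 normalized counts at 0 min, 2969, 3256 and 3409 after 2 min, 2611, 2589 and 2476 after 4 min and 2659, 1885 and 2469 after 8 min. All 4 and 8 min libraries were below all 0 and all 2 min libraries. For 8 against 2 min the log2 change was -0.47 (95% interval -0.72 to -0.23), with adjusted p = 0.131 by limma, 0.157 by edgeR and 0.0165 by DESeq2, and between 0.0165 and 0.485 over 24 alternatives. Against 0 min the log2 change was -0.39 at 8 min (-0.63 to -0.14, limma adjusted p = 0.142). The lowest library of GSTF9 was 8 min replicate 2, as for GSTF6 and GSTF7. With 1 library left out, the change lay between -0.57 and -0.32 for 8 against 2 min and between -0.49 and -0.24 for 8 against 0 min.

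GSTF12 (AT5G17220), also known as TT19 and needed to bring anthocyanins and proanthocyanidin precursors to the vacuole, had the lowest fitted change of the family. It had 24.5, 24.7 and 21.8 normalized counts at 0 min, 19.8, 23.1 and 18.3 after 2 min, 5.61, 13.9 and 10.6 after 4 min and 12.1, 7.7 and 12.7 after 8 min. Every 4 and 8 min library was below every 0 and 2 min library. The log2 change was -1.24 at 4 min (95% interval -1.91 to -0.56, limma adjusted p = 0.0875) and -1.09 at 8 min (-1.76 to -0.41, adjusted p = 0.137). edgeR gave adjusted p = 0.0826 at 4 min and 0.0799 at 8 min, and DESeq2 gave none at 4 min and 0.154 at 8 min. GSTF12 did not pass in any alternative, between 0.0641 and 0.326 at 4 min and between 0.0706 and 0.301 at 8 min. Its reads were between 5 and 25 per library, and 59 of its 1047 stretches of 50 bases overlap the phytoene synthase gene PSY on the other strand.

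GSTF14 (AT1G49860) had the largest positive change of the phi class at 8 min, with 512, 219 and 268 normalized counts at 8 min against 193, 289.6 and 306 at 0 min (log2 change 0.27, 95% interval -0.35 to 0.89). Replicate 1 decided its direction, since the log2 change was -0.090 without 8 min replicate 1. The groups overlapped.

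GSTF6, which joins glutathione to the indole precursor of camalexin, and its tandem copy GSTF7 were named for their spread. GSTF6 had 4071, 2463 and 2613 normalized counts at 0 min, 3992, 4278 and 3013 after 2 min, 2383, 2817 and 3157 after 4 min and 3372, 1122 and 2887 after 8 min. GSTF7 had 2319, 1856 and 1729 at 0 min, 2424, 3150.1 and 2099.9 at 2 min, 2435, 2119 and 2512 at 4 min, and 2866, 1163 and 2060.2 at 8 min. Replicate 2 at 8 min was the lowest of all 12 libraries for both genes. Without it, the log2 change at 8 min was 0.071 instead of -0.42 for GSTF6, and 0.32 instead of -0.039 for GSTF7. The deepest of the 12 libraries, with 26618274 reads, was this one.

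The coding sequences of GSTF6 and GSTF7 share a run of 116 bases, shown in capitals with 12 bases on either side because it marks where a read cannot tell the genes apart. The run lies in 1 coding exon of each gene, at chr1:661553-661692 for GSTF6 and chr1:659076-659215 for GSTF7 with flanks (TAIR10.1, minus strand).
GSTF6: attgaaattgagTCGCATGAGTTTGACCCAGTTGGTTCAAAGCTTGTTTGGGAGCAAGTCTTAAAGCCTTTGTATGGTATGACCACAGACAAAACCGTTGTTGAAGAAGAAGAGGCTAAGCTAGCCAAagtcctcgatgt
GSTF7: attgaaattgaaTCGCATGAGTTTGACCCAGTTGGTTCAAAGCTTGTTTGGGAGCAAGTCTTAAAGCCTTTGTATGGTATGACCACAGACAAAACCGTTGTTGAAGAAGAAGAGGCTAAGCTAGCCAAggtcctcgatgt
At the length of the reads, 75 bases, 53 of 1112 stretches of the GSTF6 transcript were identical in GSTF7. The separate values of this pair are therefore uncertain, and with both genes summed the log2 change at 8 min was -0.26 (limma adjusted p = 0.736). The auxin- and camalexin-binding GSTF2 and its near copy GSTF3 share 35 stretches of 50 bases, GSTU17 and GSTU18 share 22, and 720 of 1422 stretches of GSTF2 lie opposite TOC159.

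GSTs differed in how tightly replicates agreed. The residual SD of GSTF3 was 0.92 on the log2 scale, with 45.0 normalized counts in 4 min replicate 2 and 312 in 8 min replicate 2 as its lowest and highest libraries, and 99.9% of the 1000 tested genes nearest to it in mean level had a smaller SD. GSTU11 (SD 0.85, above 98.3% of the genes near it), GSTU12 (0.85, above 98.1%), GSTF6 (0.50, above 98.8%), GSTF14 (0.44, above 98.4%) and GSTF7 (0.38, above 98.5%) also varied widely. At the other end were GSTU10 (0.12, above 9.2%) and GSTU27 (0.082, above 20.3%). GSTU10 had 133, 101 and 121 normalized counts at 8 min against 94.997, 95.4 and 93.6 at 0 min, with no overlap (log2 change 0.31, 95% interval 0.04 to 0.57, limma adjusted p = 0.286). These SDs are within time points and hold no comparison between them.

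GSTZ1 (AT2G02390), the maleylacetoacetate isomerase of tyrosine breakdown, had 617, 515 and 534 normalized counts at 8 min against 641, 519.8 and 652 at 0 min, with overlapping groups (log2 change -0.12, 95% interval -0.35 to 0.11, limma adjusted p = 0.667).

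Of the lambda class, GSTL2 (AT3G55040), a plastid enzyme, had 504, 467 and 457 normalized counts at 0 min, 548, 532 and 513 after 2 min, 669, 532 and 506 after 4 min and 607, 449 and 482 after 8 min. Its 2 and 4 min libraries were above those of 0 min and its 8 min libraries overlapped with them (log2 change 0.096 at 8 min, 95% interval -0.16 to 0.35, limma adjusted p = 0.768). GSTL3 had 1477, 1211 and 1361 counts at 0 min, 1518, 1527 and 1476 at 2 min, 1819, 1544 and 1615 at 4 min, and 1521, 1311 and 1387 at 8 min. Only the 4 min libraries were all above 0 min, with a log2 change of 0.30 (95% interval 0.11 to 0.48, adjusted p = 0.128 by limma, 0.128 by edgeR and 0.0631 by DESeq2, and between 0.0462 and 0.408 over 24 alternatives, of which 1 passed). At 8 min the change of GSTL3 was 0.061 (-0.12 to 0.25).

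Genes that work beside these GSTs were read from 7 lists of 57 genes, of which 54 had deposited values and 49 were tested. At 2 and 4 min 0 of 49 passed limma in either direction, and at 8 min 2 of 49 were higher, beside 1.29% of all genes, and 0 lower. Both belonged to the 14 detoxification genes and TGA and SCL14 regulators known to respond with GSTs to electrophiles. OPR1, a 12-oxophytodienoate reductase that acts on reactive carbonyls, had 632, 551 and 523 normalized counts at 8 min against 253, 184 and 204 at 0 min (log2 change 1.42, 95% interval 1.08 to 1.75, limma adjusted p = 0.000247). UGT73B5, a UDP-glucosyltransferase, had 214, 164 and 200.04 at 8 min against 108, 97.7 and 89.9 at 0 min (0.96, 0.63 to 1.29, adjusted p = 0.00435). Both were above every 0 min library and passed in all 24 alternatives. Shared sequence was computed for the GSTs only, so that matches of OPR1 or UGT73B5 reads to other genes were not examined. The promoter window of UGT73B5 held 1 TGACG core and that of OPR1 held 0.

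**Figure D4:**
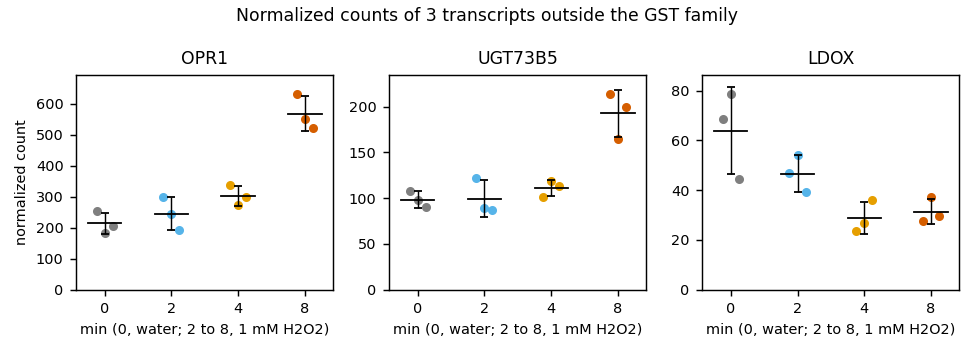
Normalized counts (y axis, from 0) of OPR1, UGT73B5 and LDOX at 0 min (water) and 2, 4 and 8 min of 1 mM H2O2 (x axis), with 1 point per library and lines for the mean and SD of 3 libraries. OPR1 and UGT73B5 stand above all other libraries at 8 min, and LDOX is lower in the 4 and 8 min libraries.

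With all 12 libraries, neither edgeR nor the limma model with time point alone called a gene of the other lists, and DESeq2 called LDOX of the anthocyanin list. At 8 min the largest absolute changes were -0.23 for AT1G65820 among 9 tested genes of other GST classes, 0.22 for the gamma-glutamyl cyclotransferase GGCT2;2 among 10 genes of glutathione synthesis, turnover and reduction, and -0.48 for ABCC6 among 6 vacuolar ABCC transporters. They were -0.36 for the C-S lyase SUR1 among 4 camalexin and glucosinolate genes and -0.23 for the fumarylacetoacetase gene FAH, which follows GSTZ1 in tyrosine breakdown, among 3 genes. The anthocyanin list, the pathway of GSTF12, had 3 tested genes, all with changes below 0 at 4 and 8 min. LDOX, the leucoanthocyanidin dioxygenase, had 27.4, 37.2 and 29.4 normalized counts at 8 min against 68.6, 78.6 and 44.5 at 0 min. These groups did not overlap (log2 change -0.98, 95% interval -1.49 to -0.46), and adjusted p was 0.0741 by limma, 0.0657 by edgeR and 0.0346 by DESeq2, with a range of 0.0324 to 0.295 over 23 alternatives. LDOX passed limma at 8 min without 0 min replicate 3 (adjusted p = 0.0324).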

How the data were processed

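The authors sequenced whole-seedling RNA as single-end reads of 75 bases, checked them with FastQC 0.11.7 and aligned them to TAIR10 with STAR 2.4.0.1. The counting program and strand setting are not given in the sources used here. The deposited values are a signal: the authors divided reads per gene by a DESeq2 1.20.0 size factor of each library. In each library 100% of values came out as whole reads (tolerance 0.0001 reads) after division by the smallest value, and every listed gene had at least 1 read there. limma 3.58.1 (R 4.3.3, trend) was fitted to log2(normalized count + 1) of 12 libraries for 19485 genes with a mean of at least 10, a scale that understates changes of low genes. Alternatives used edgeR 4.0.16 and DESeq2 1.42.0 on recovered reads, pseudocounts of 0.1 and 5, other filters, quantile normalization, a replicate block, separate fits, summed paralogs and each library left out. The main limma fit read at a threshold of 0.01 is also counted among the alternatives, and it repeats the main adjusted p. TAIR10.1 gene models matched 20858 genes. Values per library were given for members called by limma, the 3 highest per kilobase, the largest rise and fall at 8 min in each class and the tandem array, and from other lists for called genes or the largest change. The members and lists were chosen with earlier results of these data known.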

Additional observations from a re-analysis of the deposited data

How the results depend on the processing

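Of 734 values for 31 named changes under alternatives, 706 kept their direction and side of the threshold. The count of GSTs past the threshold with limma was 0 in each of the 6 comparisons and over the 4 time points. DESeq2 gave 2 at 4 min, 1 at 8 min, 1 for 8 against 2 min and 2 over the 4 time points, and DESeq2 on all listed genes, chosen after seeing the data, gave 2 (beside 1.77% of all genes higher and 0.596% lower), 1 (1.77% higher, 0.362% lower), 1 (0.772% higher, 0.0429% lower) and 2 (2.27%). With the replicate number as a block, limma gave 2 at 4 min (GSTU5, adjusted p = 0.0395, and GSTL3, 0.0462, beside 1.83% of all genes higher) and 1 at 8 min (GSTU5, 0.0295, beside 1.69%), and it called LDOX at 4 min (0.0383). Whether the numbers pair the samples is not stated, and correlations of the deviations did not settle it. Libraries with the same number correlated between -0.328 and 0.255 (18 pairs, mean 0.0097). Those with different numbers correlated between -0.345 and 0.465 (36 pairs, mean -0.0052), and not every library correlated best with its own number. Replicate 1 at 2, 4 and 8 min gave 0.167, 0.216 and 0.231, while replicate 2 at 4 and 8 min gave -0.328. Without the block, limma called 0.754% of all genes higher at 4 min and 1.29% at 8 min. Leaving out each library in turn kept every count at 0 (range 0 to 0). The log2 change of GSTU6 at 8 min was -0.021 with quantile normalization, and that of GSTF7 was 0.045 with DESeq2, 0.044 with DESeq2 on all listed genes and 0.045 with edgeR. With 1 library left out, changes at 8 min ranged from -0.22 to 0.22 for GSTU6, -0.33 to 0.32 for GSTF7, -0.72 to 0.071 for GSTF6, -0.13 to 0.031 for GSTF10, -0.090 to 0.52 for GSTF14, -0.031 to 0.19 for GSTL2 and -0.014 to 0.13 for GSTL3. The cause was not tested. A minimum mean of 50 left no value for GSTU1, GSTU4, GSTU6, GSTU7, GSTU14, GSTF12, LDOX and ABCC6. Depth limits GSTF12 (5 to 25 reads per library) and GSTU7 (14 to 59 reads). It also limits GSTU12 (5 to 33), GSTU24 (8 to 23), GSTU4 (10 to 29), GSTU6 (10 to 34) and GSTU11 (10 to 47).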
